A study of Drosophila melanogaster with 2 samples.

Results

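The genes of the mitochondrial ribosome are described here for their occupancy by CG10366 in the fly embryo. They were taken as the protein-coding genes of Drosophila melanogaster whose names begin with mRpL or mRpS, which gave 73 of 13986 annotated protein-coding genes, 47 for the large and 26 for the small ribosomal subunit. Chromatin immunoprecipitation and sequencing (ChIP-seq) had been done on transgenic flies carrying CG10366 joined to eGFP, with an antibody to GFP, so that the tagged protein stands in for the native one. The material was whole embryos of 0 to 24 h, and all cell types and stages of that interval are therefore mixed. The study has 1 group of 2 biological replicates, both from the tagged strain, and control libraries were not analysed here. Chromatin had been sonicated to fragments of 200 to 800 bp, and all coordinates are on the dm6 build.

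Mitochondrial ribosomes translate the few messenger RNAs made from mitochondrial DNA, nearly all of which encode subunits of the respiratory chain. Their RNAs come from the mitochondrial genome, but all of their proteins are encoded in the nucleus, made in the cytosol and imported, so that many dispersed nuclear genes must supply 1 particle. Many of these proteins have bacterial counterparts, and others are found only in mitochondria.

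The deposited files are peak lists, a long ranked list and a shorter thresholded one for either library and for the libraries taken jointly. The irreproducible discovery rate (IDR) used here is the global one. It is the expected share of irreproducible peaks among those ranked at least as high, not the chance for a single peak. The thresholded lists hold peaks with an IDR of 0.01 or less. A gene is called passing below where the summit of a thresholded peak lay within 500 bp of the start of any of its transcripts, and a candidate is a ranked peak in the same window. The signal is the authors' own value for each peak. It is compared within a list, except where the values of the 2 replicates are set side by side. The lists hold 5153 thresholded of 34018 ranked peaks for both libraries together (called series-wide here), 4876 of 62792 for replicate 1 and 3378 of 37922 for replicate 2. Read totals are not in the lists, so the depth behind each value is unknown.

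CG10366 peaks stood at the promoters of 28 of the 73 mRp genes in the series-wide list, or 38.4% (95% Wilson interval 28.1% to 49.8%), where 19.4% of all protein-coding genes passed. A candidate was present at 43 mRp genes, and 28 of these passed, or 65.1% (50.2% to 77.6%), against 45.3% of the 5995 coding genes with a candidate. The interval for the mRp genes lies above that background. In the list of replicate 1 the share was 60.0% (24 of 40 genes, interval 44.6% to 73.7%) against 36.6% of coding genes, and in that of replicate 2 it was 30.8% (16 of 52 genes, 19.9% to 44.3%) against 28.7%. The share in replicate 2 alone was thus near its background. The conservative list, a further list made from both libraries, had 45.7% (21 of 46 genes, 32.2% to 59.8%) against 34.8%, and there the background lies inside the interval. These intervals cover counting error alone, and they treat genes as independent draws. They are no test, since the genes were chosen with earlier results of these data known. A head-to-head coding neighbour was present at 79.5% of mRp genes and 36.2% of coding genes, as described below. Among genes with such a neighbour and a series-wide candidate, 68.3% of mRp genes passed (53.0% to 80.4%). The 58.1% of coding genes lies inside that interval.

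**Figure D1:**
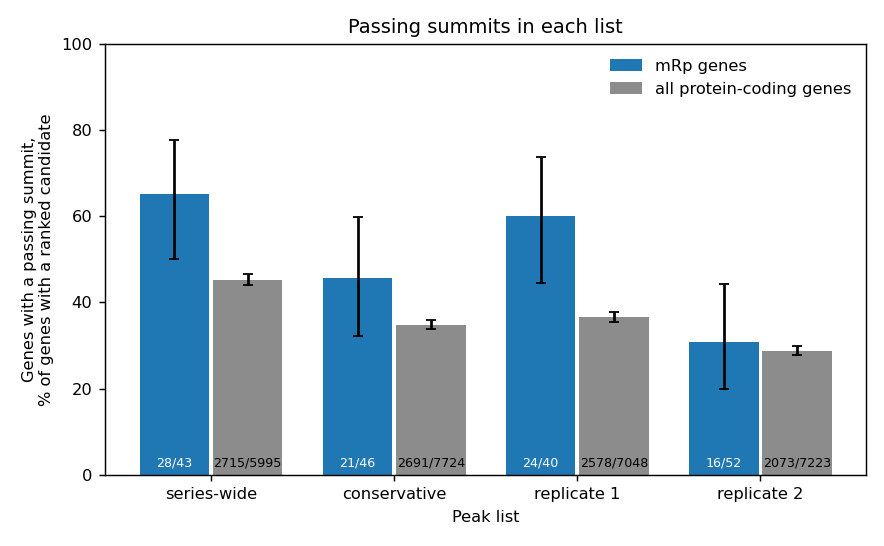
Percent of genes with a ranked candidate that had a thresholded summit within 500 bp of a start, for mRp genes (blue) and all protein-coding genes (grey) in each of the 4 lists, with 95% Wilson intervals as bars and the counts at the foot of each column. The mRp column stands at 65.1% series-wide and falls to 30.8% in replicate 2, where the grey column is at 28.7%.

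A small set of mRp promoters was among the most strongly occupied places in the genome. mRpL41, which encodes a large-subunit protein, had a series-wide signal of 2806 at rank 4 of 5153, with 1666 in replicate 1 and 1148 in replicate 2. mRpS23, a small-subunit protein gene, had 2192 at rank 8, with 1302 and 910 in the replicates. mRpS10, whose bacterial counterpart sits in the head of the small subunit, had 2162 at rank 9, with 1290 and 878. mRpL23, whose bacterial counterpart lies at the exit of the tunnel for the growing chain, had 1756 at rank 21, with 1049 and 711. Both libraries thus placed these promoters in the same order. All 4 genes were also among the 25 strongest peaks of each replicate's own list, a count given without the share of all coding genes. The summits of the replicates lay 1 to 3 bp apart.

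A second tier of 4 genes followed after a gap between 827 and 1756 in which no mRp gene fell. mRpL24 and mRpL20 encode large-subunit proteins whose bacterial counterparts act early in subunit assembly. mRpL24 had a signal of 827, with 445 in replicate 1 and 394 in replicate 2, and mRpL20 had 759, with 441 and 316. Of the small subunit, mRpS2 had 688, with 353 and 334, and mRpS6 had 402, with 229 and 188. These 8 genes made up every mRp gene among the 1000 strongest series-wide peaks, and 8 were also among the 1000 strongest of each replicate. The share of all coding genes among the 1000 strongest peaks is not given here, so these counts have no background. A series-wide signal of at least 500 was reached by 7 of the 28 passing mRp genes, against 316 of the 2715 passing coding genes, or 11.6%.

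The DNA under 6 of the 8 strongest mRp summits is printed below, because their shared property is their base composition. The windows at mRpL41, whose intergenic summit is the strongest of all, and at mRpL23, whose summit is in a 5′ UTR, are not shown. Each line gives 101 bp centred on the summit, 5′ to 3′ on the strand of the mRp gene, and capitals mark unbroken runs of at least 8 A or T. The sequence at mRpL4, a gene of middling signal, comes last as a contrast, and it was chosen after it was seen to have no such run. Its series-wide peak had no overlapping ranked peak in either replicate and was not in the conservative list. The printed windows lie, in the same order, at chr2L:13835414-13835514 (minus strand), chr3R:15229483-15229583 (plus), chr2L:4945460-4945560 (minus), chr3L:13018082-13018182 (minus), chr2L:4850512-4850612 (minus), chr3L:4364405-4364505 (plus) and chr2L:16329165-16329265 (minus).
mRpS23: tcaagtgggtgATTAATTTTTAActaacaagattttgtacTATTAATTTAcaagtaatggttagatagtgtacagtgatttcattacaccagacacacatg
mRpS10: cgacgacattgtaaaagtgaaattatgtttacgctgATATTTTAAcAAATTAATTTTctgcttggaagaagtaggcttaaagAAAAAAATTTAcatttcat
mRpL24: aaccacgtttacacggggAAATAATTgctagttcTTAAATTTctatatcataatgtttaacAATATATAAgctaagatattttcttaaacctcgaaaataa
mRpL20: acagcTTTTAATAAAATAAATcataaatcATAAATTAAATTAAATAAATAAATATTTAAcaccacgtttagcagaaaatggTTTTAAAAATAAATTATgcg
mRpS2: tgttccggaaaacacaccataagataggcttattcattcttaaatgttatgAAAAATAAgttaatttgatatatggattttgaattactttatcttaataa
mRpS6: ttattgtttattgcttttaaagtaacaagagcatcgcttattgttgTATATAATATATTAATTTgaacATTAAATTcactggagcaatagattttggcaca
mRpL4: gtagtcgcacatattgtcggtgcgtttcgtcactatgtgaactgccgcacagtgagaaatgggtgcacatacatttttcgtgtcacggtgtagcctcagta

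The GC content of these windows was 29.7% at mRpS23, 26.7% at mRpS10, 25.7% at mRpL24, 17.8% at mRpL20, 23.8% at mRpS2 and 25.7% at mRpS6, against 48.5% at mRpL4. In the mRpL20 window 63 of the 101 bases lie in A/T runs, the longest of 30 bp. The mRpS2 window, by contrast, is also poor in G and C but has a single run of 8 bp.

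Across all 28 passing mRp promoters, the GC content within 50 bp of the strongest summit was 32.2% ± 9.71 (SD, n = 28 summits), and it ranged from 17.8% to 56.4%. Further out, 300 to 500 bp from the summit, the same promoters had 48.3%, and the core was poorer than its flanks at 25 of 28, or 89.3%. That was also so at 12 of the 14 failing mRp candidates, or 85.7%, and at 78.5% of all passing and 40.7% of failing coding promoters. The 14 mRp candidates that failed the threshold had 40.9% ± 6.89 (SD, n = 14) at the summit and 50.6% in the flanks. All passing coding promoters had 34.7% ± 10 (SD, n = 1917) at the summit and failing ones 45.2% ± 10.7 (n = 2784). The dip at mRp summits was therefore shared with passing promoters in general. Unbroken A/T runs of at least 8 bp occurred in 25 of the 28 mRp windows, or 89.3%, and in 8 of the 14 failing mRp windows, or 57.1%, against 76.2% of all passing and 44.5% of failing coding windows.

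**Figure D2:**
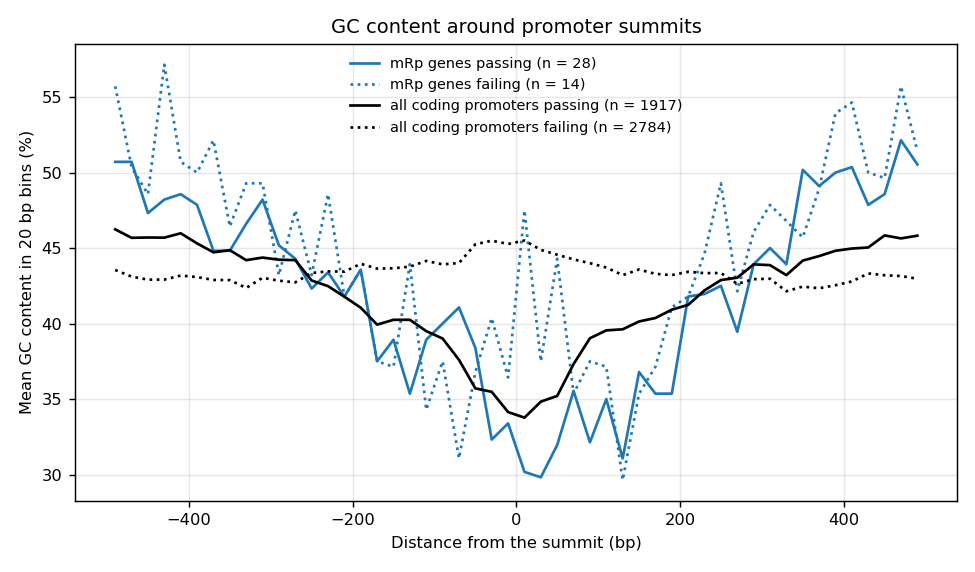
Mean GC content in bins of 20 bp against the distance from the summit, for passing (solid, n = 28) and failing (dotted, n = 14) mRp promoters in blue and for all passing (n = 1917) and failing (n = 2784) coding promoters in black. Both solid lines dip at the summit, the black dotted line does not, and the blue lines are uneven because few promoters stand behind each bin.

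The stronger mRp promoters were the poorer in GC. The 8 genes with a signal of at least 400 averaged 24.1% ± 3.81 (SD, range 17.8% to 29.7%), and the other 20 averaged 35.5% ± 9.47 (range 20.8% to 56.4%). Among all coding promoters the corresponding means were 30.2% ± 8.66 (n = 319) and 35.6% ± 10.1 (n = 1598). Spearman's rho of signal and GC content was -0.57 over the 28 mRp summits and -0.27 over the 1917 coding promoters, as a description over summits that share the same libraries. A low GC content did not go with a high signal at every gene: mRpL37, with 20.8%, had a signal of 153, and mRpS18A, with 26.7%, had 76.1.

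**Figure D3:**
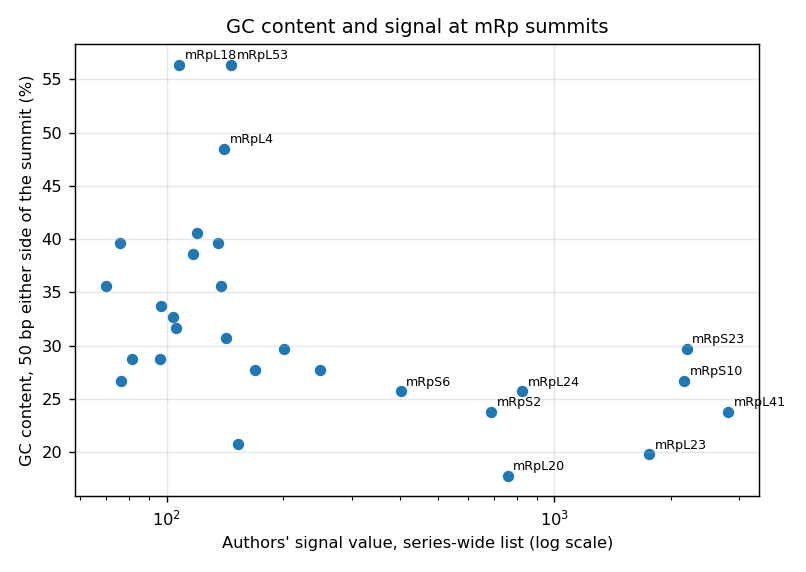
GC content within 50 bp of the strongest summit against the series-wide signal (log scale) for each of the 28 passing mRp genes. The 8 genes with a signal of at least 400 all lie at or below 29.7%, whereas the weaker ones spread from 20.8% to 56.4%.

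The remaining 20 passing genes had series-wide signals between 69.9 and 248. Of the large subunit, mRpL34 had 248, mRpL32 169, mRpL37 153, mRpL53 147, mRpL4 141, mRpL21 120, mRpL11 117, mRpL18 108, mRpL43 104, mRpL39 96.9 and mRpL16 76.0. The bacterial counterparts of L11 and L4 lie at the base of the factor-binding stalk and in the tunnel wall. Of the small subunit, mRpS7 had 201, mRpS24 142, mRpS26 138, mRpS31 136, mRpS18B 106, mRpS22 96.1, mRpS21 81.3, mRpS18A 76.1 and mRpS25 69.9. The S7 protein of bacteria organises the head of the small subunit, and S18A and S18B are 2 of several paralogues of 1 bacterial protein. Over the 28 genes the median signal was 141 (quartiles 106 and 473), and over all 2715 passing coding genes it was 173 (116 and 303). Over the genes that passed in each library's own list, the medians were 83.8 for mRp and 105 for coding genes in replicate 1, and 149 and 94.6 in replicate 2, so the order of the medians differed between the libraries. Series-wide, 4 of 28, or 14.3%, reached a signal of 1000, compared with 77 of 2715, or 2.84%.

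**Figure D4:**
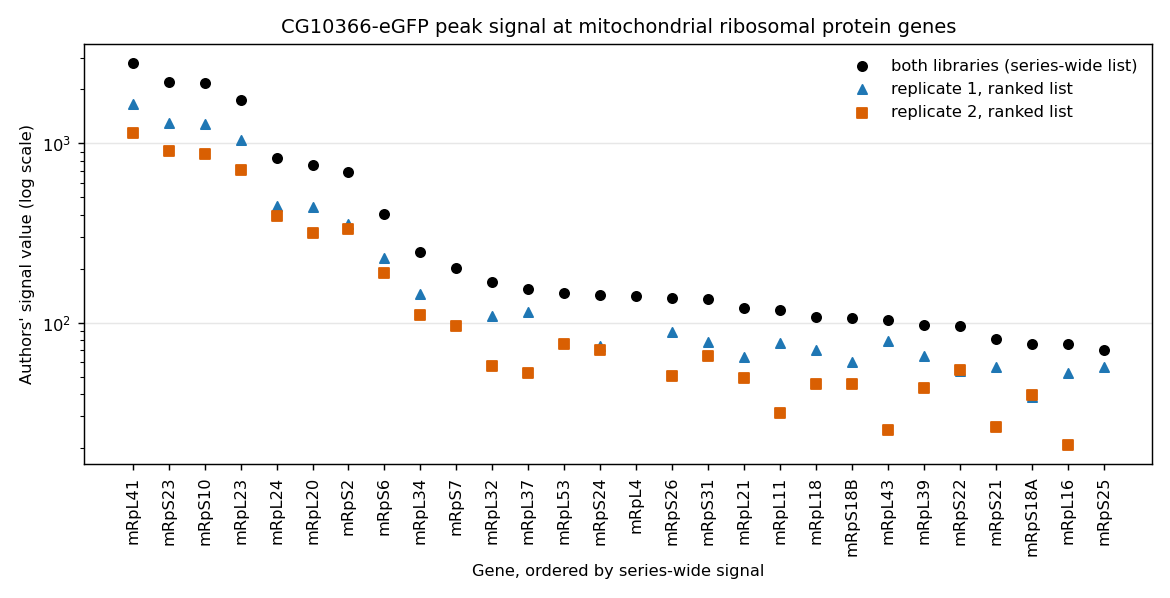
Signal of the strongest series-wide peak at each passing mRp gene (black) with the signals of the overlapping ranked peaks of replicate 1 (blue) and replicate 2 (orange), on a log axis. The first 4 genes stand at 1756 or above series-wide, the next 4 between 402 and 827, and the last 20 below 250; a missing symbol means that no ranked peak of that replicate overlapped.

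The IDR is computed from the ranks of the peaks, so its low values at the strongest genes add no separate support. For the 10 genes of highest signal the −log10 of the IDR was 5, the highest value among the 28, while mRpS25 at 2.08, mRpL16 and mRpL21 at 2.17 and mRpS18A at 2.33 were closest to the threshold of 2. Doubled peaks stood at mRpS18A and mRpS21: mRpS18A had neighbouring summits with signals of 76.1 and 5.68 and the same IDR, and mRpS21 had 81.3 and 17.3. Only the stronger summit of each was used.

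The replicates gave the strong genes alike and the weak ones unevenly. Of the 28 series-wide peaks, 14 overlapped a thresholded peak of both replicates, 10 one of replicate 1 alone, 2 (mRpL53 and mRpS7) one of replicate 2 alone and 2 (mRpL4 and mRpS18A) neither. Of all passing coding promoters 66.2% were in both and 21.2% in replicate 1 alone, where the mRp genes had 14 of 28 and 35.7%. The 14 genes found in both were mRpL20, L23, L24, L32, L34, L37 and L41 and mRpS2, S6, S10, S22, S23, S24 and S31, and these also passed in the conservative list. At 24 genes each replicate had an overlapping ranked peak, and replicate 1 had the higher signal at 22 of them. These values come from separate lists of libraries whose depth is unknown. The ratio of replicate 1 to replicate 2 had a median of 1.44 (0.968 to 3.13), close to the median of 1.37 over all coding promoters, and mRpL43 was the most uneven with 78.7 and 25.2. Spearman's rho between the libraries was 0.860 over these 24 genes.

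Some series-wide peaks had little behind them in the single libraries. At mRpL4 neither replicate had an overlapping ranked peak, although the joint peak had a signal of 141 and a −log10 IDR of 3.70. At mRpL53 and mRpS7 the support came from replicate 2, with 76.1 and 96.0, and no ranked peak of replicate 1 overlapped. mRpS25 had 56.4 in replicate 1 and no overlapping ranked peak in replicate 2. The conservative list kept 20 of the 28 genes, left out mRpL4, L11, L16, L43, L53 and mRpS7, S21 and S25, and added mRpL54.

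The other 45 genes did not pass. Failing candidates stood at 14 of them, with signals from 32.7 at mRpL48 to 96.8 at mRpL54, and mRpL54 (−log10 IDR 1.55) and mRpS29 (1.44) came nearest to the threshold. The rest of these were mRpL1, L2, L9, L13, L17, L27, L28, L35 and L42 and mRpS17 and S18C. mRpL47 stood apart: its peak, 98 bp upstream, had a signal of 124 and met the IDR with a −log10 value of 3.62, but it is 1 of 148 such ranked peaks that are not in the thresholded list, and it is not counted as passing. No series-wide candidate was found at 30 genes. These were mRpL3, L10, L12, L14, L15, L19, L22, L30, L33, L36, L38, L40, L44, L45, L46, L49, L50, L51, L52 and L55, and mRpS5, S9, S11, S14, S16, S28, S30, S33, S34 and S35. At 10 of them (mRpL3, L10, L15, L33, L36, L40 and L45 and mRpS9, S33 and S34) none of the 4 ranked lists had a candidate.

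Every passing mRp gene lay head to head with another protein-coding gene, that is with a start on the opposite strand within 1000 bp upstream. Such a divergent partner was present at 58 of the 73 genes, or 79.5%, and at 36.2% of all coding genes. Of the 58 mRp genes 28 passed, or 48.3% (35.9% to 60.8%), while 0 of the 15 without a partner passed, which allows a share of up to 20.4%. Over all coding genes 34.7% of those with a partner and 10.8% of those without passed. Counted over genes with both a partner and a candidate, 28 of 41 mRp genes passed, or 68.3% (53.0% to 80.4%), against 58.1% of coding genes, which lies inside that interval. The 2 candidates among the 15, at mRpL9 and mRpL13, had signals of 54.5 and 36.5. Starts of the passing pairs were 20 to 793 bp apart, with a median of 302 bp.

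The peaks lay between the start sites of the pairs. At 27 of 28 genes the strongest summit was upstream of the mRp start (96.4%, against 88.4% of passing coding genes), with a median of -146 bp (quartiles -217 and -89.8) against -130 bp (-221 and -63.0). The exception was mRpL23, whose summit lay 80 bp downstream of the nearest of its 3 annotated starts, in a 5′ UTR. At 25 of the 28 pairs, or 89.3%, the summit was upstream of both starts, against 82.2% of all 1752 passing genes with a partner. The start of the partner was the nearer one at 16 of the 28 pairs, or 57.1%, against 42.8%, so a peak cannot be assigned to the mRp gene of a pair from its position. By annotation 24 summits were intergenic, 3 in a 5′ UTR and 1, at mRpL53, in an intron, and 58.6% of all passing coding promoters were intergenic.

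The partners that shared the strongest peaks had other functions. mRpS10 faced the arginine methyltransferase gene Art3, with the summit 132 bp from the one start and 125 bp from the other. mRpS23 faced CenG1A, a gene for a GTPase-activating protein, whose start was nearer at 100 bp than that of mRpS23 at 392 bp. mRpL24 and mRpL20 each faced a gene of protein prenylation, betaggt-I, a subunit of geranylgeranyl transferase, and Icmt, the methyltransferase that caps prenylated proteins. mRpS2 faced Mon1, which acts in the maturation of late endosomes, mRpS6 faced Cip4, an actin regulator, and mRpL23 faced CG9004. At mRpL41 the divergent gene CG8079 started 632 bp from the summit, and within 500 bp lay the start of the non-coding RNA gene lncRNA:CR44463.

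Among the weaker pairs were Cdk1, the mitotic kinase, with mRpS7, AGO1, the Argonaute protein of the miRNA pathway, with mRpL53, Dg, the dystroglycan gene, with mRpL34, and Apc2, an adenomatous polyposis coli homologue, with mRpS24. Some partners also act in mitochondria: HtrA2, a protease, faced mRpL11, and Taz, the cardiolipin-remodelling tafazzin, faced mRpL18. In these 2 pairs the summit lay inside the partner, 87 and 128 bp past its start. Further partners with a start within 500 bp of the summit included trr (mRpL16), rept (mRpL21), qless (mRpL32), Prosbeta2 (mRpL39), CG30183 (mRpL43), CG31460 (mRpS18A), Kua (mRpS18B), Droj2 (mRpS21), CG5003 (mRpS22), nmdyn-D6 (mRpS25), CG13698 (mRpS26) and hzg (mRpS31). CG33155 also started within 500 bp of the mRpL53 summit. The partner of mRpL4, CG4440, started 710 bp from the summit.

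**Figure D5:**
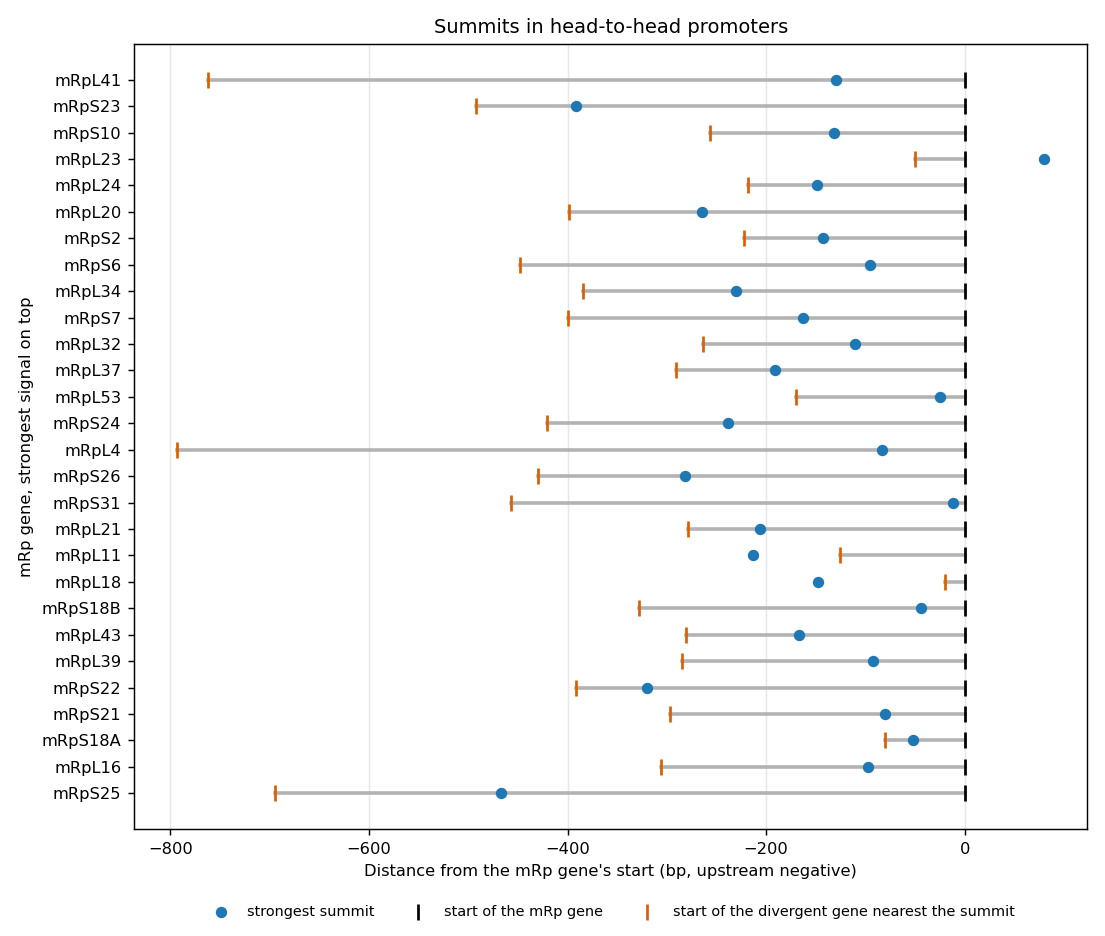
Position of the strongest summit (blue) relative to the start of each passing mRp gene (black, at 0) and to the partner's start nearest the summit (orange), in bp with upstream negative, ordered by signal. At 25 of the 28 pairs the summit lies between the starts, and mRpL23, mRpL11 and mRpL18 are the exceptions.

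Known promoter elements were searched as exact letters on both strands within 100 bp of each summit, and 12 were tried. The BEAF-32 box CGATA was in 13 of 28 mRp windows, or 46.4% (29.5% to 64.2%), against 38.4% of all passing and 32.4% of failing windows. Among failing mRp windows it was in 9 of 14, or 64.3% (38.8% to 83.7%), a higher share than in the passing ones, with overlapping intervals. DRE, the replication-related element TATCGATA, which contains that box, was in 4, at mRpL16, mRpL32, mRpL39 and mRpS18B, or 14.3% (5.70% to 31.5%) against 7.72%, and in 2 of the 14 failing mRp windows, also 14.3%. The E-box CAGCTG was in 8 windows, or 28.6% (15.3% to 47.1%), against 12.5% of passing and 12.4% of failing coding promoters. It was also in 6 of the 14 failing mRp windows, or 42.9% (21.4% to 67.4%), so at mRp genes it was no more frequent where the peak passed.

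Of the remaining elements, the TATA box TATAAA was in 9 windows, or 32.1% against 36.0%, the GAGA element GAGAG in 5, or 17.9% against 19.8%, and the initiator TCAGT in 4, or 14.3% (5.70% to 31.5%) against 32.0%. Failing mRp windows had the initiator at 4 of 14, or 28.6% (11.7% to 54.6%), with an interval that overlaps, and failing coding windows at 33.2%. Motif 7 (CANCNCTA) was in 3 windows, or 10.7% against 18.5%. The Motif 1 core GGTCACAC, the E-box CACGTG, the CTCF core AGNNGGCGC and the ETS site CCGGAA were in 1 window each, or 3.57% against 4.33%, 1.98%, 2.87% and 5.69%. Among failing mRp windows the TATA box, GAGA, Motif 7 and the Motif 1 core were each in 3 of 14, or 21.4% (7.57% to 47.6%). The ewg site GCGCATGC was in 0 of 28 (up to 12.1%) and in 0.469% of all passing windows. Of the strongest genes, mRpL41 and mRpS10 had the BEAF-32 box and no other of the 12, mRpL23 had GAGA and TATA matches, and mRpS23 and mRpS6 had none.

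A short word recurs in the printed sequences: ATTAAT, which reads the same on both strands, occurs at mRpS23, mRpS10 and mRpS6. Within 50 bp of the summit it was in 4 of the 8 windows with a signal of at least 400, the fourth being mRpL23, and in 2 of the other 20, mRpS7 and mRpS21. Together that is 21.4% (10.2% to 39.5%), against 10.9% of passing and 4.53% of failing coding promoters, and 16.6% of the 319 coding promoters with a signal of at least 400. The word was picked after reading these windows. It holds only A and T, and the GC content was lower at the stronger summits, as given above. The part of base composition in these shares was not tested.

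Both subunits were represented. Of the small-subunit genes with a candidate 13 of 16 passed, or 81.2% (57.0% to 93.4%), and of the large-subunit genes 15 of 27, or 55.6% (37.3% to 72.4%), with intervals that overlap. The subunit is that of the gene name, and in mammals the proteins named S18A and S30 are part of the large subunit. Genes with numbers from L37 and S22 upwards, most of which have no bacterial counterpart, passed at 11 of 16 candidates, or 68.8% (44.4% to 85.8%), and lower-numbered ones at 17 of 27, or 63.0% (44.2% to 78.5%). The background of 45.3% lies inside both intervals, and in replicate 2 the shares were 33.3% and 29.0%. The median signals were 147 for the large and 138 for the small subunit.

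On the X chromosome 2 of 11 mRp genes had a series-wide candidate, or 18.2% (5.14% to 47.7%), and 41.1% of all X-linked coding genes did, a share inside that interval. The ranked list of replicate 1 had candidates at 4 of the 11, or 36.4% against 49.6%, and that of replicate 2 at 6, or 54.5% against 47.8%, so the lower share was not seen in replicate 2. Both genes with a series-wide candidate passed, and they were mRpL16 and mRpS25, at 76.0 and 69.9 the lowest signals of the 28. Of the 9 X-linked mRp genes with a divergent partner 2 had a candidate, or 22.2% (6.32% to 54.7%). Of X-linked coding genes with a partner 56.4% did, a share just above that interval. This comparison is given for the series-wide list alone. As a share of all mRp genes on the X, 2 of 11 is 18.2%, near the 19.4% of X-linked coding genes that passed. On the autosomes 6 of 12 genes passed on 2L, 5 of 12 on 2R, 7 of 17 on 3L and 8 of 21 on 3R, where 19.3%, 18.1%, 20.5% and 20.3% of coding genes passed.

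Of 42 other genes of mitochondrial gene expression 23 had a candidate, and 9 of these passed, or 39.1%, near the 45.3% of all coding genes with a candidate. The ribosomal protein genes tko and bonsai, which fall outside the name rule, had no series-wide candidate. Of 9 translation factor genes only mIF2, the initiation factor, passed, with a signal of 109, and of 15 mitochondrial aminoacyl-tRNA synthetase genes ProRS-m (170) and CysRS-m (148) did. The strong exceptions were in RNA metabolism: PNPase, a ribonuclease gene, had 2228 at rank 7, between mRpL41 and mRpS23, and SLIRP2, an RNA-binding protein gene, had 1083 at rank 73, while SLIRP1 had 249 and mTerf5 101. Of the genes for mitochondrial DNA replication, mtSSB (355) and PolG2 (193) passed. Cytoplasmic ribosomal protein genes passed at 64 of 75 candidates, or 85.3% (75.6% to 91.6%), with an interval that overlaps that of the mRp genes (50.2% to 77.6%). The intervals did not overlap in replicate 2, with 68.4% (57.5% to 77.6%) for the cytoplasmic and 30.8% (19.9% to 44.3%) for the mRp genes. They did not overlap either as shares of all genes series-wide, with 69.6% (59.5% to 78.0%) and 38.4% (28.1% to 49.8%). Respiratory chain genes passed at 21 of 46 candidates, or 45.7% (32.2% to 59.8%), near the background of 45.3%.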

How the data were processed

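Per the labels, anti-GFP ChIP-seq libraries were made from 2 biological replicates of CG10366-eGFP embryos; neither aligner nor caller is named in the sources used here. The authors deposited peak lists called per sample and for both libraries jointly, with each peak's signal and summit offset; the ranked lists add the −log10 of the global IDR, as deposited. The lists give no read counts, so depth is unknown and its effect on each list could not be gauged. Summits were assigned to transcript starts of Ensembl release 115 (window 500 bp), and sequence was read from the RefSeq copy of dm6. Replicate peaks were matched by an overlap of at least 1 bp. Shares carry 95% Wilson intervals; no test was run, since the study has 1 group. The counting was tested on simulated data. Python 3.11.15, numpy 2.4.6, scipy 1.17.1 and matplotlib 3.10.9 were used. The genes named were all passing members, failing ones by their signals and closeness to the threshold, and the others by name.

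The members, gene lists and motifs were chosen with earlier results of these data known. The split at a signal of 400, the A/T runs of 8 bp, the word ATTAAT, the comparison sequence at mRpL4, the feature classes, the grouping by number and the tallies by arm were chosen after their values were seen. Of the names in the other mitochondrial lists, ico, mEFG2 and SLIMP were not found in the annotation. The alternatives were another list, each library alone, a stricter IDR, other windows, other start sites and overlap of intervals. The name of 1 neighbouring gene is not reported here.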

Additional observations from a re-analysis of the deposited data

How the results depend on the processing

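Of 39 alternative values computed, 33 stayed within 1.5 times the reported count, within the 95% interval of the reported share or, for GC content, within 1 SD. Without a replicate, 16 to 24 genes passed. Leaving out replicate 1 gave 16, or 21.9% of mRp genes, and leaving out replicate 2 gave 24, or 32.9%. Over all coding genes the share also fell, from 19.4% to 14.8% and 18.4%. The counts of passing genes with a divergent partner were the same (16 to 24). The share of candidates passing ranged from 30.8% to 60.0% without a replicate, where coding genes had 28.7% and 36.6%. An IDR of 0.001 or less left 19 of the 28 genes, which is within that tolerance for a count but not for the share, 44.2% (36.3% of coding genes), and the conservative list gave 45.7% (34.8%). With motif windows of 50 bp to either side, 50% of windows had at least 1 of the 12 motifs, in place of 85.7%. Windows of 250 and 1000 bp around the start gave 23 and 28 passing genes, where 15.4% and 22.6% of all coding genes passed. The outermost start and the overlap of intervals gave 28 each, where 17.3% and 20.5% of coding genes passed. No paired analysis was possible because the study has 1 group. The unknown depth of the libraries limits what the lower count in replicate 2 can show.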
